A study of Mus musculus with 4 samples.

Results

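The cells described here are macrophages of mouse skin tumours that carried messenger RNA of Mmp12, the macrophage metalloelastase, together with the genes of the complement component C1q. They were chosen by UMI counts (unique molecular identifiers, 1 per captured RNA molecule). A droplet barcode had to hold at least 200 genes and under 20% mitochondrial UMIs. It also needed at least 5 UMIs of C1qa, C1qb and C1qc together, at least 2 of Mmp12, none of the T cell gene Cd3e, and under 2% of its UMIs from the neutrophil genes S100a8 and S100a9. Of 50887 cells kept, 866 met all criteria, 240 in control 1, 23 in control 2, 296 in NP137 1 and 307 in NP137 2. Control 2 thus contributed few cells. MHC class II genes took no part in the choice.

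All mice carried Lgr5CreER, KrasLSL-G12D and p53fl/fl together with Rosa26-YFP+/+ (a model called LKPR), in which Cre recombinase is made where Lgr5 is active. Every mouse received tamoxifen, as 4 injections of 2.5 mg at postnatal day 28, and tumours were found at 7 to 9 weeks. Mice of the NP137 group were injected with NP137, an antibody against netrin-1, at 10 mg/kg every 2 days, starting 4 weeks after tamoxifen, while the control group has no treatment on record. All live tumour cells were sorted without selection for immune cells and run as 4 single-cell 3′ libraries, 2 per group, with 10000 cells loaded each. Whether each library came from an animal of its own is not on record, and p-values therefore cover only the spread between these samples, which may be technical.

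Tissue macrophages arise from embryonic precursors or from blood monocytes that enter the tissue and mature there. MHC class II molecules on their surface present peptides to CD4+ T cells, and the transactivator Ciita drives the genes that make, load and chaperone them. Mmp12 is a secreted protease named for its action on elastin, and in mice it is made mainly by macrophages. In skin, a perivascular resident macrophage type is known by Lyve1, Folr2, Cbr2 and F13a1. Another type, rich in MHC class II and Mgl2, overlaps in its markers with dendritic cells.

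The 4 libraries were not alike in depth or origin. The chosen cells had a median of 5270 UMIs in control 1, 15080 in control 2, 2941 in NP137 1 and 10193 in NP137 2. Macrophages that passed the same criteria with no Mmp12 UMI, 4382 in all and used as the comparison class, had medians of 3989, 9863, 2261 and 6585 UMIs. A shared date stands in the file names of control 1 and NP137 1, and 2 different later dates stand in those of control 2 and NP137 2. Among the chosen cells Xist UMIs without Y-linked ones were found in 210 of 240 in control 1, 1 of 23 in control 2, 66 of 296 in NP137 1 and 294 of 307 in NP137 2. Y-linked UMIs without Xist were found in 0, 20, 54 and 0 cells, so that NP137 1 held cells of both kinds. Any pair of libraries shared 24 to 86 barcodes, and none of these was a barcode of the chosen cells. Scrublet called 20.1% of the chosen cells doublets, against 16.9% of the Mmp12-zero macrophages and 12.5% of all kept cells. Values without these cells are given where they differ.

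The measurements that chose the cells are given as a description. The median chosen cell held 5 UMIs of Mmp12 in control 1, 6 in control 2, 3 in NP137 1 and 9 in NP137 2, and the cell with the most held 153. The C1q genes, which encode the chains of the first complement component, gave 40, 62, 31 and 87 UMIs per median cell. Close to the Mmp12 threshold, 180 cells just inside it held 2 UMIs and 382 macrophages just outside it held 1. For C1q, 18 chosen cells held exactly 5 UMIs and 19 cells just outside held 4. Mmp12 itself was not confined to these cells. They held 63.8%, 37.6%, 54.2% and 61.6% of a library's Mmp12 UMIs in the same order of libraries, 59.4% of 13602 in all.

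The label of MHC class II macrophages was checked against markers. After each cell was thinned to 2000 UMIs, H2-Aa, which encodes a chain of the I-A class II molecule, had a UMI in 92.7%, 90.9%, 95.2% and 93.1% of the chosen cells of control 1, control 2, NP137 1 and NP137 2. The share was 52.3%, 58.8%, 88.5% and 69.4% in Mmp12-zero macrophages. In T cells, which are not known to make the gene in the mouse, it was 5.91%, 1.52%, 18.3% and 10.5%, taken as the background from free RNA. The chosen cells lay far above this background in every library, and Mmp12-zero macrophages of NP137 1 came close to them. Cd74, the invariant chain that escorts class II molecules, had a UMI in 97.9%, 90.9%, 98.8% and 96.4% of the chosen cells. Thinning kept 812 of the chosen cells, 3849 Mmp12-zero macrophages and 1031 T cells, and left out 54 chosen and 533 Mmp12-zero cells with fewer UMIs.

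Of 11 general macrophage markers tested between the classes by the comparison described further on, 10 did not pass and Ms4a7 was lower in the chosen cells. Csf1r, the receptor for colony stimulating factor 1, stood at 452, 620, 354 and 391 CPM (UMI counts scaled to a common total per library and class) in the chosen cells of control 1, control 2, NP137 1 and NP137 2. In Mmp12-zero macrophages it stood at 575, 459, 374 and 342 CPM, and the log2 difference was 0.04 (adjusted p = 0.970, by the quasi-likelihood test of edgeR with p-values adjusted after Benjamini and Hochberg). Flt3 and Zbtb46, defining genes of classical dendritic cells, were near 0, at 0 to 1.35 CPM each in the chosen cells. The summed level of the 12 dendritic markers was 206 and 399 CPM in the controls, against 219 and 294 CPM with NP137, led by Bst2, which other cells also make. The 7 Langerhans cell markers summed to 585 to 797 CPM, led by Tnfaip2, and Cd207, the langerin gene, stood at 25.7, 58.3, 34.1 and 7.76 CPM. Of 6 Langerhans markers tested between the classes, Tnfaip2 and Gpr141 were higher in the chosen cells and 0 were lower, where 2.32% of all genes were higher. Before thinning, Cd207 had a UMI in 5.42%, 26.1%, 7.09% and 4.89% of the chosen cells of control 1, control 2, NP137 1 and NP137 2. In control 2 this was 6 of 23 cells.

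RNA of tissue cells was present too. The 13 keratinocyte markers summed to 758, 2033, 6185 and 1471 CPM in the chosen cells of control 1, control 2, NP137 1 and NP137 2, led by Krt14. The 10 fibroblast markers summed to 4170, 1061, 3014 and 7991 CPM, led by Sparc. The 7 B cell markers summed to 23, 6.13, 36.1 and 3142 CPM, nearly all of it Igkc in NP137 2, where Mmp12-zero macrophages held 6342 CPM. T cell and neutrophil markers summed to 9.20 to 88.0 and 94.0 to 499 CPM. Between the classes, 10 of 10 fibroblast and 10 of 12 keratinocyte markers tested lay below 0 and none passed in either direction. Their part in the results that follow was not tested.

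The first comparison set the chosen cells against Mmp12-zero macrophages of the same library, with UMI counts summed per library and class and the library as a block. Of 9704 genes tested, 225 were higher (2.32%) and 160 lower (1.65%) in the chosen cells at an adjusted p under 0.05. The genes of the choice were left out of the test. Class II presentation, cytokine receptor and glycolysis genes were among those higher, and genes of Lyve1-type resident macrophages were the largest fall. Leaving out control 1 left 19 higher and 25 lower, leaving out NP137 2 left 45 and 37, and leaving out control 2 or NP137 1 left 211 or 286 higher and 181 or 145 lower. Mmp12-zero cells matched in UMIs gave 165 higher and 69 lower of 8621 genes tested.

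Genes of resident macrophages were lower as a group. Of 18 members of this list tested, 14 were lower and none higher, against 1.65% and 2.32% of all genes tested. The median log2 difference was -1.55 against -0.03 over all genes tested. Lyve1, a hyaluronan receptor of lymphatic vessels and perivascular macrophages, stood at 6.09, 0, 0 and 5.89 CPM in the chosen cells of control 1, control 2, NP137 1 and NP137 2 and at 153, 31.1, 14.6 and 113 CPM in Mmp12-zero macrophages. The classes did not overlap within any library, and the log2 difference was -4.48 ± 0.23 (SE, n = 4 libraries, edgeR adjusted p = 9.28e-06). By thinned cells Lyve1 had a UMI in 1.71%, 0%, 0% and 0.658% of the chosen cells, where 0 of 252 cells in NP137 1 allows a share of up to 1.19%. It was found in 17.0%, 2.75%, 0.752% and 13.7% of Mmp12-zero macrophages, so that in NP137 1 the difference was not detectable by this share.

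Cbr2, a carbonyl reductase, stood at 27.1, 3.07, 9.75 and 27.8 CPM against 299, 70.6, 51.4 and 333 CPM in Mmp12-zero macrophages, a log2 difference of -3.41 ± 0.19 (edgeR adjusted p = 9.28e-06). Folr2, the folate receptor beta, stood at 31.8, 58.3, 9.75 and 53.5 against 226, 185, 50.4 and 380 CPM (log2 difference -2.57). F13a1, the A chain of coagulation factor XIII, stood at 85.2, 21.5, 7.80 and 47.4 against 561, 106, 87.7 and 282 CPM (log2 difference -2.72). All 3 were lower in each library. The chemokine gene Ccl8 fell by 2.90 on the log2 scale, the selenium transport protein Selenop by 1.41, and the ligand of TAM receptors Gas6 by 1.91. The transcription factor gene Maf, which in mice acts in resident macrophages, fell by 1.47. Fcna, a ficolin gene of the lectin pathway, fell by 1.81, and C4b, complement component 4, by 1.78.

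Of the 18 members 17 lay below 0, and not all of these passed. Mrc1, the mannose receptor, stood at 271, 390, 114 and 151 CPM in the chosen cells and at 705, 462, 297 and 545 CPM in Mmp12-zero macrophages. It was lower in each library, but its log2 difference of -1.25 did not pass (edgeR adjusted p = 0.0656). Ltc4s and Clec10a did not pass either. Cd163, a scavenger receptor for haemoglobin, fell by 3.40 in the fit (edgeR adjusted p = 0.00801), yet in control 2 it stood at 6.13 CPM in the chosen cells against 0.888 CPM in the other class, from 2 UMIs each.

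**Figure D1:**
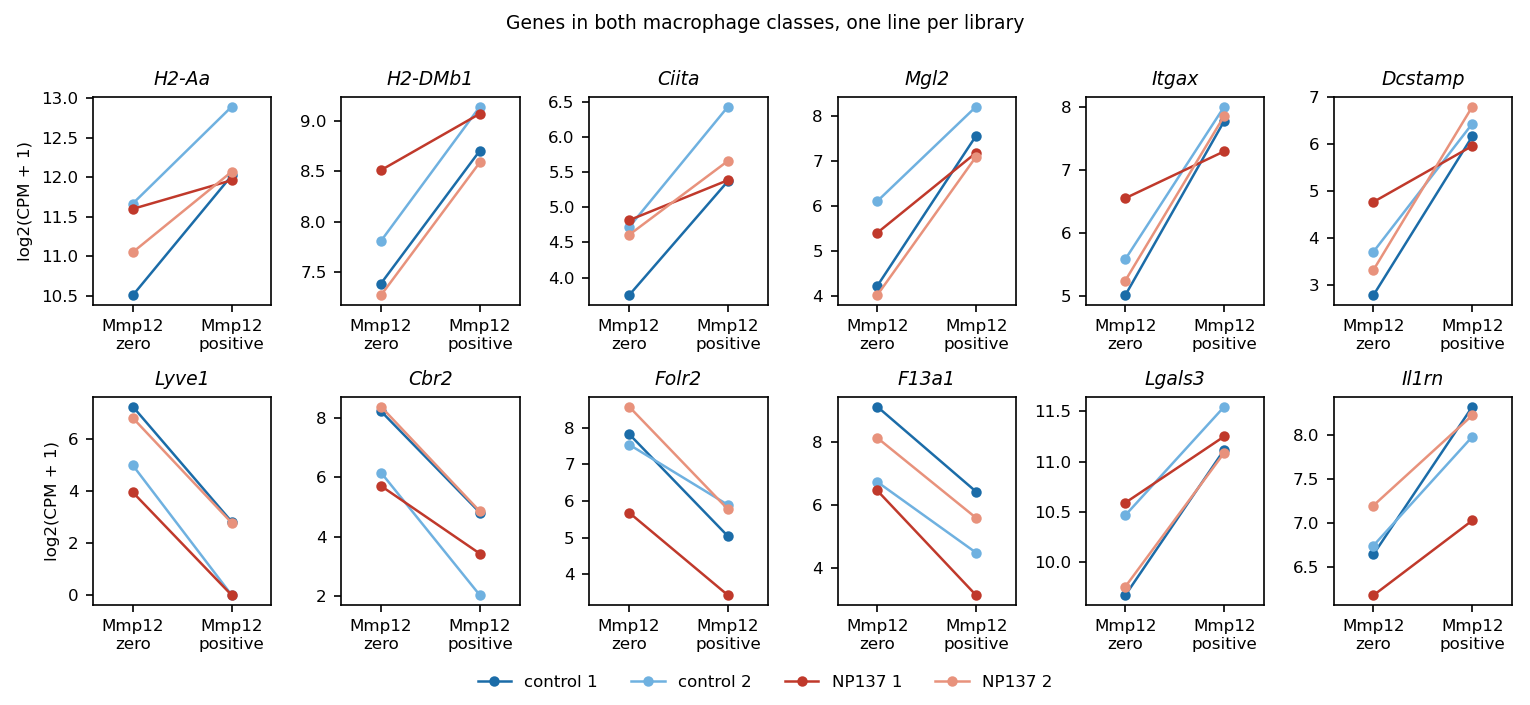
Levels of 12 genes as log2(CPM + 1) in Mmp12-zero macrophages (left) and in Mmp12-positive macrophages (right), with 1 line per library. Lyve1, Cbr2, Folr2 and F13a1 fall along every line, while H2-DMb1, Ciita, Mgl2, Dcstamp and Lgals3 rise along every line, and the line of NP137 1 is the flattest for several of the genes that rise.

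The genes of class II presentation lay higher. All 10 members of the list tested were above 0 with a median log2 difference of 1.12, but only 3 of 10 passed, against 2.32% of all genes tested. In every library 7 were higher, as were 10.8% of all genes tested. H2-DMb1 encodes a chain of H2-M, which loads peptides onto class II molecules. It stood at 417, 564, 537 and 384 CPM in the chosen cells of control 1, control 2, NP137 1 and NP137 2, against 166, 223, 364 and 153 CPM in Mmp12-zero macrophages (log2 difference 1.14 ± 0.14 SE, edgeR adjusted p = 0.00318). H2-DMa, its partner chain, rose by 0.99 (edgeR adjusted p = 0.00727). Ciita stood at 40.6, 85.9, 41.0 and 49.8 against 12.4, 25.3, 27.2 and 23.4 CPM, a rise of 1.26 ± 0.19 (edgeR adjusted p = 0.00769). In all 3 genes the chosen cells were higher in each library, with the narrowest gap in NP137 1.

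The class II molecules themselves did not pass in this fit. H2-Aa stood at 4160, 7612, 3989 and 4301 CPM in the chosen cells and at 1453, 3249, 3101 and 2120 CPM in Mmp12-zero macrophages, a log2 difference of 1.03 ± 0.19 (edgeR adjusted p = 0.0597). H2-Ab1, the other I-A chain, gave 1.16 ± 0.22 (edgeR adjusted p = 0.0722) and Cd74 gave 1.05 ± 0.20 (edgeR adjusted p = 0.0703). Each was higher in the chosen cells of all 4 libraries. H2-Eb1, a chain of the I-E molecule, stood at 2610, 6437, 1487 and 2199 against 914, 2942, 1503 and 1024 CPM, and NP137 1 was level between the classes (log2 difference 0.94, adjusted p = 0.197). With DESeq2 8 of the 10 list members passed, and without NP137 1 also 8, whereas without control 1 only 1 did.

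Promoter sequences of genes in this comparison are shown because class II promoters are known for a conserved box that holds a CCAAT sequence, and Mmp12 for an AP-1 site (TGANTCA). Each is a window of 300 bases around an annotated start, printed 5′ to 3′ on the gene's strand from RefSeq on GRCm38.p6, with every CCAAT (or ATTGG, its reverse) and TGANTCA (the same on both strands) in capitals.
Mmp12: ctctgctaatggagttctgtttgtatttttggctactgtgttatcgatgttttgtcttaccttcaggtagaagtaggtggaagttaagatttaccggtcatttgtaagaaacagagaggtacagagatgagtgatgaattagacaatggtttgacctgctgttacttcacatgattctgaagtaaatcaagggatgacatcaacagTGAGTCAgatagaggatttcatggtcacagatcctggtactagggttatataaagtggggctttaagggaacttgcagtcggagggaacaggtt
H2-Aa: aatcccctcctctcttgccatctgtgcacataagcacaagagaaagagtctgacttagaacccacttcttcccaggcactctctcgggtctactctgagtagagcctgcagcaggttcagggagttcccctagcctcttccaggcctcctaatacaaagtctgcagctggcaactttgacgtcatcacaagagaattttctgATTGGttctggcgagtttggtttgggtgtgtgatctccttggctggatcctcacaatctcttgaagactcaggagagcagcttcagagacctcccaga
H2-Eb1: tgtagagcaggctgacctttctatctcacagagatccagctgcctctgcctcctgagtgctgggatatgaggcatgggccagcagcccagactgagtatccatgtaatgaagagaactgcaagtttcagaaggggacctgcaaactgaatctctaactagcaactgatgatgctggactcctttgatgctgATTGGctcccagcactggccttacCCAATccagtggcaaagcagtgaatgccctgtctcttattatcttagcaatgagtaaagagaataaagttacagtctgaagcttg
H2-DMb1: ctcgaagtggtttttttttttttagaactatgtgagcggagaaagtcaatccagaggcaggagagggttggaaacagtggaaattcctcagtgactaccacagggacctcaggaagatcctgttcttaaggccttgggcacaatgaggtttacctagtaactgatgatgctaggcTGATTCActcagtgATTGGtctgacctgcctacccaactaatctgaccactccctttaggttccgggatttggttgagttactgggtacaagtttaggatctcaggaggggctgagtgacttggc
The H2-Aa window (chr17:34287774-34288073, minus strand) holds 1 CCAAT match, the H2-Eb1 window (chr17:34305617-34305916, plus strand) holds 2, and the H2-DMb1 window (chr17:34152941-34153240, plus strand) holds 1 together with 1 TGANTCA match. The Mmp12 window (chr9:7347124-7347423, plus strand) holds 1 TGANTCA match, and a window at its other listed start (chr9:7344147-7344446) has neither motif. Of 32851 promoter windows in the table, 37.4% hold CCAAT and 7.81% hold TGANTCA on either strand. A CCAAT match is thus common and a TGANTCA match less so, and either describes letters only. Windows that are not printed were searched too. Of 2 H2-DMa windows, chr17:34122582-34122881 has neither motif and chr17:34125268-34125567 has 1 match of each. The Mgl2 window holds 2 CCAAT matches, and of 2 Folr2 windows 1 holds a TGANTCA match and neither holds CCAAT. H2-Ab1, Ciita, Lyve1 and Dcstamp are named here without a sequence.

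The largest rises among genes higher in all 4 libraries, with a mean of at least 20 CPM, began with 3 genes of membrane proteins. Tnfrsf9, the costimulatory receptor 4-1BB, stood at 87.9, 15.3, 15.6 and 90.7 CPM in the chosen cells of control 1, control 2, NP137 1 and NP137 2, against 6.88, 2.67, 9.57 and 5.48 CPM in Mmp12-zero macrophages (log2 difference 3.38 ± 0.53 SE, edgeR adjusted p = 0.040). Dcstamp, a transmembrane protein needed for the fusion of osteoclasts and giant cells, stood at 71.0, 85.9, 61.4 and 111 against 5.83, 12.0, 26.2 and 8.92 CPM, a rise of 2.97 ± 0.47 (edgeR adjusted p = 0.0456). Mgl2, a C-type lectin of dermal dendritic cells and macrophages, stood at 189, 298, 145 and 137 against 17.6, 68, 41.3 and 15.1 CPM (2.70 ± 0.31, edgeR adjusted p = 0.0128). Being higher in every library was a condition for this list. Before thinning, Tnfrsf9 had a UMI in 35 of 240, 2 of 23, 13 of 296 and 84 of 307 chosen cells, and in 17.2% of T cells. By thinned cells Mgl2 had a UMI in 20.1%, 22.7%, 17.9% and 18.1% of the chosen cells, against 3.19%, 7.69%, 8.02% and 2.77% of Mmp12-zero macrophages and 0% to 1.74% of T cells.

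AA467197, a gene also known as Nmes1, rose by 2.27 ± 0.19, Ifitm1, an interferon-induced transmembrane protein, by 2.22 ± 0.31, and Mcemp1, a membrane protein first found in mast cells, by 1.54 ± 0.19. Malt1, the paracaspase of NF-kappa-B signalling, rose by 1.52 ± 0.21 and Tnip3, an inhibitor of that pathway, by 1.42 ± 0.15. Il1a, a cytokine released by damaged or activated cells, stood at 368, 92.0, 125 and 345 against 110, 31.5, 92.7 and 83.3 CPM and rose by 1.5 ± 0.28. The gene of coagulation factor X, F10, rose by 1.46 ± 0.26. These 7 genes and the 3 above are the 10 largest rises by that rule. Of the 10, 4 still passed without control 1, 5 without control 2 and 3 without NP137 2, with every direction kept, and 8 passed against UMI-matched Mmp12-zero cells. Of the 10 largest falls, 9 could be tested without control 1 and all 9 passed.

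Itgax, the integrin CD11c that marks dendritic cells and some tissue macrophages, stood at 220, 258, 157 and 233 CPM against 31.4, 47.1, 93.2 and 37.0 CPM in Mmp12-zero macrophages. It was higher in each library, but its log2 difference of 2.21 ± 0.40 did not pass (edgeR adjusted p = 0.0645). Its p over the 13 alternatives ran from 2.55e-08 to 0.295, and 3 of them put it past the threshold. By thinned cells Itgax was found in 36.3%, 31.8%, 26.2% and 37.8% of the chosen cells and in 6.16%, 6.59%, 18.8% and 6.41% of Mmp12-zero macrophages. Ccl17, a chemokine that draws Ccr4-bearing T cells, stood at 87.2, 169, 2.93 and 79.2 against 1.24, 8.0, 4.53 and 1.39 CPM. It passed with a log2 difference of 5.11 ± 0.76 (edgeR adjusted p = 0.0429), although NP137 1 was low in both classes.

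Receptors for granulocyte-macrophage colony stimulating factor rose together. Csf2rb, the signalling chain also used by the receptors of interleukin 3 and 5, stood at 221, 224, 212 and 284 CPM against 92.3, 116, 150 and 93.4 CPM, a rise of 1.11 ± 0.17 (edgeR adjusted p = 0.0101). Csf2ra, the ligand-binding chain, rose by 0.57 and Csf2rb2, a paralog of the signalling chain that can share reads with it, by 1.09. The other members of the list of 13 colony stimulating factor and receptor genes tested did not pass, apart from Tgfbr2, a receptor chain for transforming growth factor beta, which was lower.

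Among 19 inflammatory genes tested, 5 were higher and 2 lower, against 2.32% and 1.65% of all genes tested. Their median log2 difference was 0.41. Il1rn, the antagonist that blocks the interleukin 1 receptor, stood at 319, 252, 130 and 298 against 99.0, 106, 71.5 and 146 CPM and rose by 1.22 ± 0.14 (edgeR adjusted p = 0.00220). Nlrp3, the inflammasome sensor, rose by 0.60, Acod1, which makes itaconate, by 1.32, and Nfkbia, an inhibitor of NF-kappa-B, by 0.41. Saa3, an acute phase apolipoprotein, fell by 1.07 and Il18, a cytokine matured by the inflammasome, by 0.83. Il1b itself stood at 5167, 3033, 3151 and 3736 against 1322, 752, 1992 and 1166 CPM, higher in each library, with a log2 difference of 1.58 that did not pass (edgeR adjusted p = 0.0504). Of 17 checkpoint and costimulatory genes 4 were higher, against the same 2.32% of all genes. Among these were Cd80 and Cd86, the ligands of Cd28, with rises of 1.12 and 0.63, and Nt5e, the enzyme CD73, with 0.79. Siglec1, sialoadhesin, fell by 2.28.

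Hypoxia and glycolysis genes held 10 higher members of 22 and none lower, against 2.32% and 1.65% of all genes tested. Their median log2 difference was 0.52. Pgk1, phosphoglycerate kinase, stood at 542, 356, 501 and 585 CPM against 290, 206, 405 and 361 CPM and rose by 0.67 ± 0.11 (edgeR adjusted p = 0.0114). Mif, a cytokine with tautomerase activity, rose by 0.64 and Ldha, lactate dehydrogenase, by 0.41. The others were Gpi1, Aldoa, Slc16a3, Pgam1, Gapdh, Bnip3 and Eno1. This count was 0 without control 1 and 1 without NP137 2.

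The list of 15 metalloproteinase genes and inhibitors tested had a median log2 difference of 0.14. Adam8, a sheddase of leukocytes, rose by 1.19 ± 0.16 (edgeR adjusted p = 0.00391). Mmp14, a membrane-bound collagenase, rose by 0.51, and Timp2, an inhibitor, fell by 0.68. Mmp13, collagenase 3, stood at 372, 73.6, 506 and 322 against 64.9, 14.7, 414 and 216 CPM and Mmp9, gelatinase B, at 278, 6.13, 101 and 205 against 23.8, 9.33, 100 and 220 CPM, and neither passed. Mmp13 was far apart between the classes in both control libraries and closer in both NP137 libraries. In the list of 13 plasminogen and coagulation genes F7, F10, Plau and Plaur were higher. They encode coagulation factors VII and X, urokinase and its receptor.

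Genes of lipid-associated macrophages mostly did not pass. Lgals3, galectin 3, was the 1 of 21 that passed, at 2224, 2990, 2436 and 2178 CPM against 816, 1415, 1543 and 865 CPM (rise of 1.13 ± 0.12, edgeR adjusted p = 0.00272). Trem2, a lipid-sensing receptor, stood at 264, 193, 231 and 215 against 331, 403, 183 and 334 CPM and Spp1, osteopontin, at 2799, 405, 1727 and 1330 against 1580, 428, 706 and 475 CPM, and neither passed. Among lysosomal genes Ctsz and Ctsh were higher and Lgmn was lower. Fth1, the ferritin heavy chain, rose by 0.73 and Cybb, a subunit of the phagocyte oxidase, by 0.52. No member of the lists for interferon response (25 tested), S phase (22), G2 and M phase (22), mitochondrially encoded (13), ribosomal protein (20) or dissociation genes (17) passed. Of 5 netrin ligand and receptor genes tested none passed. Unc5b, a netrin receptor, stood at 21.6, 18.4, 15.6 and 11.5 CPM in the chosen cells.

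**Figure D2:**
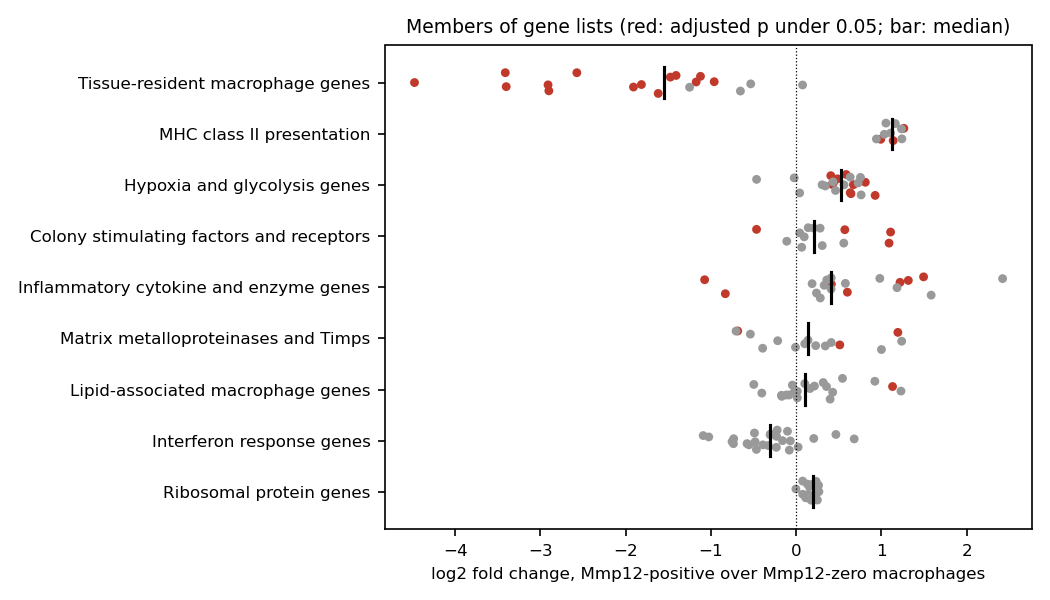
Log2 differences between Mmp12-positive and Mmp12-zero macrophages for the tested members of 9 gene lists, 1 point per gene, red where edgeR's adjusted p was under 0.05, with a bar at the list median. The resident list lies mostly below 0 with a median of -1.55, and the class II and hypoxia lists lie mostly above 0 with medians of 1.12 and 0.52.

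Within the macrophages the same genes were followed over bins of Mmp12 UMIs, pooled over libraries. The bins held 4382 cells with 0 UMIs, 382 with 1, 391 with 2 to 4, 232 with 5 to 9 and 243 with 10 or more, and the median depth was 4575, 4494, 4352, 5354 and 8798 UMIs. Dcstamp stood at 9.58, 28.2, 70.1, 77.9 and 119 CPM and Lgals3 at 973, 1399, 1703, 2040 and 2819 CPM along these bins. Cbr2 stood at 290, 126, 31.2, 20.2 and 16.3 CPM and Mrc1 at 602, 315, 211, 175 and 148 CPM. Cells with 1 Mmp12 UMI lay between the cells without any and the chosen cells for all 4 genes. H2-Aa stood at 2109, 3052, 4013, 4433 and 4384 CPM and was level from 2 UMIs upward. C1qa, which helped choose all of these cells, stood at 3940, 3544, 3595, 4168 and 4024 CPM, and in control 2 alone at 5429, 2086, 2529, 4035 and 2858 CPM. The bins differ in their mix of libraries, and the plot of levels by bin gives each library on its own.

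**Figure D3:**
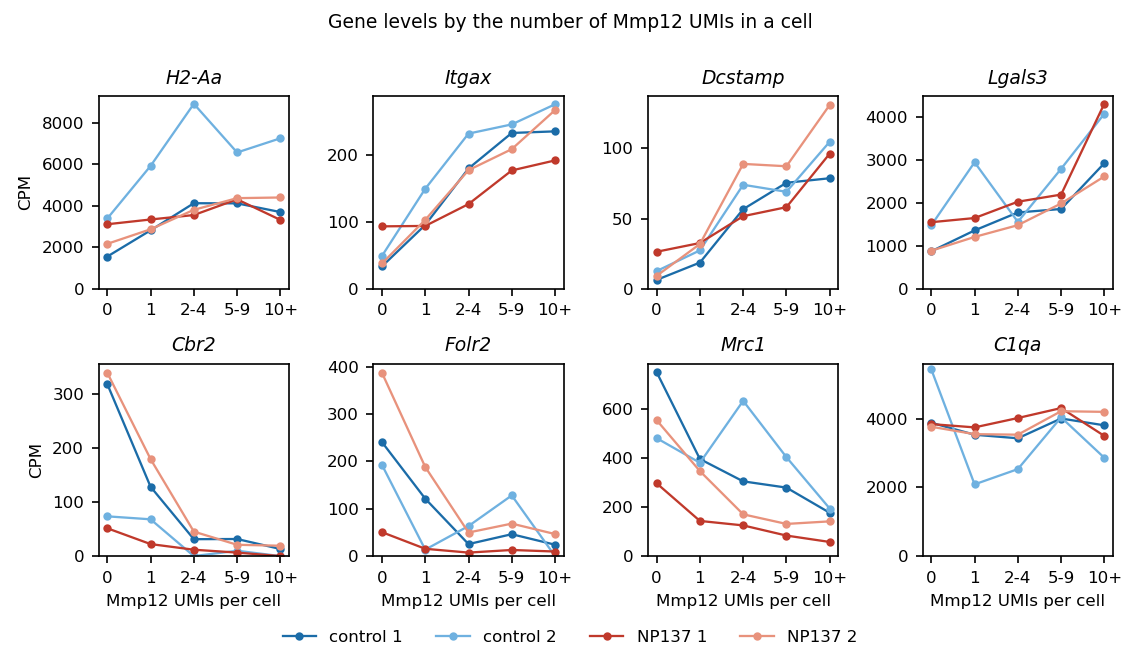
CPM of 8 genes (vertical axes) in C1q macrophages binned by Mmp12 UMIs per cell (horizontal axis), with 1 line per library. Dcstamp and Lgals3 are highest in the bins with more Mmp12 UMIs, and Cbr2 and Mrc1 are lowest there. An exception is Mrc1 in control 2, at 482 CPM with 0 UMIs and 635 CPM in the 8 cells with 2 to 4 UMIs.

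The second comparison asked how frequent the cells were with and without NP137. Among C1q macrophages, the chosen cells made up 10.4% in control 1 (240 of 2318, exact 95% binomial interval 9.14% to 11.7%) and 10.4% in control 2 (23 of 221, 6.71% to 15.2%). They made up 26.3% in NP137 1 (296 of 1127, 23.7% to 28.9%) and 15.6% in NP137 2 (307 of 1964, 14.1% to 17.3%). Both NP137 libraries lay above both controls, with means of 20.9% ± 7.52 (SD, n = 2) and 10.4% ± 0.0378 (SD, n = 2). The exact 2-sided permutation test gave p = 0.33, the smallest that 4 libraries allow. Intervals and floors cover counting error only.

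Both NP137 libraries stayed above both controls under other depth settings, with other sizes. After thinning to 2000 UMIs the share was 6.66% and 3.21% in control 1 and 2 and 25.0% and 8.20% in NP137 1 and 2. With at least 4 Mmp12 UMIs it was 6.64%, 7.69%, 13% and 12.5%. In the pair whose files share a date, control 1 and NP137 1, the share was 10.4% against 26.3%, and in the remaining pair 10.4% against 15.6%. Mmp12 UMIs in thinned T cells, a measure of free RNA, were found in 0.909%, 1.52%, 2.61% and 0.952% of cells, highest in NP137 1, whose share was also the highest, and this was not tested further.

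Among all kept cells the chosen cells made up 2.06% in control 1 (1.81% to 2.33%), 0.405% in control 2 (0.257% to 0.607%), 1.78% in NP137 1 (1.59% to 1.99%) and 1.82% in NP137 2 (1.62% to 2.03%). The groups overlapped, with means of 1.23% ± 1.17 (SD, n = 2) in control and 1.80% ± 0.0239 (SD, n = 2) in NP137, and the exact permutation p was 1. The log2 ratio of 0.55 rested on control 2 and was -0.19 without it.

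**Figure D4:**
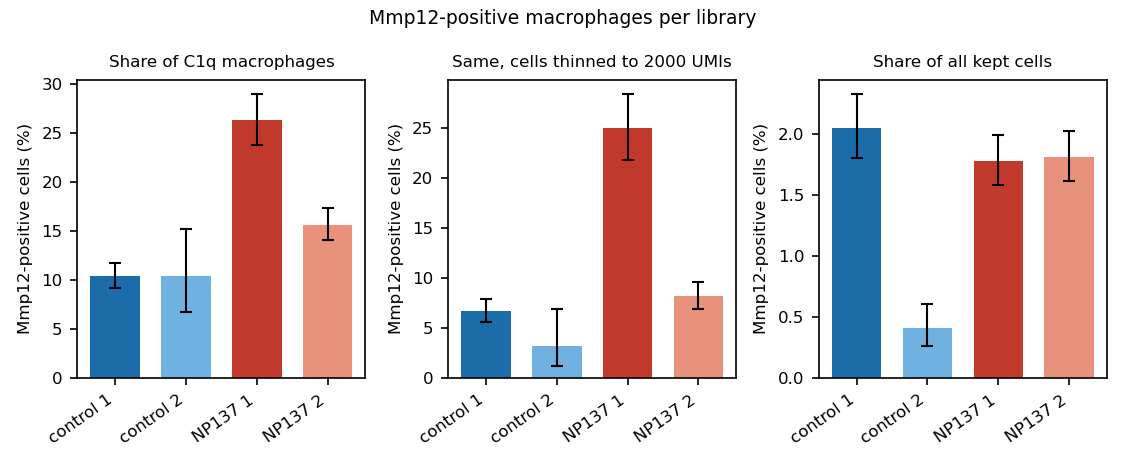
Share of Mmp12-positive macrophages in each library, in percent, among C1q macrophages, among C1q macrophages thinned to 2000 UMIs and among all kept cells, with exact 95% binomial intervals for counting error. Both NP137 bars are above both control bars in the first 2 panels, and the groups overlap in the third.

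The third comparison tested NP137 against control within the chosen cells, with sums of 1538569 and 329511 UMIs in control 1 and 2 and of 1091166 and 3807477 UMIs in NP137 1 and 2. Of 8620 genes tested none passed in either direction by edgeR (0%), with 565 at an unadjusted p under 0.05 and a smallest adjusted p of 0.0513. DESeq2 called 9 higher and 8 lower. Group values did not overlap for 1792 genes that were higher (20.8%) and 1675 that were lower (19.4%) with NP137. The values that follow are therefore described without a call.

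The smallest adjusted p belonged to Gzme, a granzyme gene, with 0 UMIs in the chosen cells of both control libraries and 87 and 449 UMIs in NP137 1 and NP137 2. Over each group this is at least 68.1-fold higher, against a floor of 3 UMIs over the control group (edgeR adjusted p = 0.0513). Gzmd, a granzyme gene of the same cluster, had 0 UMIs in the controls and 42 and 345 UMIs in NP137 1 and 2. These close paralogs can share reads. Mmp12-zero macrophages held 0.860, 0, 25.7 and 65.0 CPM of Gzme in control 1, control 2, NP137 1 and NP137 2, so the gene followed the libraries in both classes. The 12 T and natural killer markers left without the rule gene Cd3e, Gzmb among them, summed to 39.2 and 9.20 CPM in the controls, against 56.6 and 88.0 CPM with NP137. Fibroblast markers summed to 4170 and 1061 CPM against 3014 and 7991 CPM. Which cells the granzyme RNA came from was not tested.

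Genes of the extracellular matrix lay on either side, and none passed. Groups without overlap were a condition for naming Gzme, Gzmd, Col6a3, Lum and Mgp. It was met by 20.8% of all genes tested in the higher direction and by 19.4% in the lower. Col6a3, a chain of collagen VI, stood at 28.2 and 26.9 CPM in the chosen cells of the controls and at 127 and 213 CPM in the NP137 libraries (log2 difference 2.62 ± 0.36 SE, edgeR adjusted p = 0.208). Lum, the keratan sulfate proteoglycan lumican, stood at 7.87 and 11.9 against 51.6 and 62.3 CPM (adjusted p = 0.230, edgeR). Mgp, the matrix Gla protein that inhibits calcification, stood at 41.3 and 95.5 against 9.39 and 3.62 CPM, a log2 difference of -3.50 ± 0.63 (edgeR adjusted p = 0.355). The summed fibroblast markers, with 4170 and 1061 CPM in the controls against 3014 and 7991 CPM under NP137, overlapped between the groups.

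On the lower side, Rsad2, the antiviral enzyme viperin, stood at 115 and 137 CPM in the controls and at 12.2 and 21.5 CPM with NP137 (log2 difference -2.82 ± 0.36, edgeR adjusted p = 0.208). Ahnak, a large scaffold protein, stood at 602 and 495 against 180 and 188 CPM (-1.58 ± 0.26, edgeR adjusted p = 0.279). S100a4, a calcium-binding protein of motile cells, stood at 548 and 582 against 238 and 182 CPM (edgeR adjusted p = 0.355). Cxcl12, a chemokine of stromal cells, stood at 168 and 95.5 against 15.0 and 33.3 CPM. Groups without overlap were a condition for naming these 4 genes, and 19.4% of all genes tested met it in this direction.

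Lists were described by their counts. All 22 genes of G2 and M phase lay above 0 with NP137, with a median log2 difference of 1.03 against -0.01 over all genes. Of these, 20 did not overlap between the groups, where 20.8% of all genes tested were higher without overlap. Mki67, a proliferation antigen, stood at 55.8 and 92.5 CPM in the controls against 144 and 129 CPM with NP137 (edgeR adjusted p = 0.757), and Birc5, survivin, at 57.1 and 32.8 against 139 and 103 CPM. Of 19 S phase genes 18 lay above 0, with a median of 0.69. By thinned cells Mki67 had a UMI in 7.69% and 13.6% of the chosen cells of the controls and in 20.6% and 12.2% with NP137, so that the groups overlapped. The value of control 2 was 3 of 22 cells, with an exact 95% binomial interval of 2.91% to 34.9%. Mki67 or Top2a, a topoisomerase of dividing cells, had a UMI in 11.5% and 13.6% against 23.8% and 16.8%. In the pair of libraries that share a date the G2 and M median was 0.63, and in the remaining pair 1.08.

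Interferon response genes lay lower with NP137, 19 of 22 below 0 and 10 without overlap, with a median log2 difference of -1.0. Over all genes tested, 19.4% were lower without overlap. Isg15, a ubiquitin-like protein, stood at 306 and 361 CPM in the controls against 162 and 110 CPM with NP137 (edgeR adjusted p = 0.512). The median was -0.43 in the pair that shares a date and -1.32 in the remaining pair. Of 16 checkpoint and costimulatory genes 15 lay below 0 and 9 were lower without overlap, against the same 19.4% of all genes. Tnf, tumour necrosis factor, stood at 279 and 221 against 105 and 104 CPM (edgeR adjusted p = 0.441). Of 17 dissociation and immediate early genes, which also respond to tissue digestion, 13 lay below 0, with a median of -0.59, and the part of digestion was not tested. No member of these lists passed.

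Of 10 class II genes tested, 8 overlapped between the treatments in the chosen cells. The other 2 were lower without overlap, near the share of 19.4% over all genes tested. H2-Aa stood at 4035 and 7406 CPM without NP137 and at 3840 and 4154 CPM with it (log2 difference -0.52, edgeR adjusted p = 0.80). Of the 10 class II genes 8 lay below 0, with a median of -0.28, which was 0.08 in the pair that shares a date and -0.60 in the remaining pair. Ccl8 stood at 28.2 and 8.95 against 67.6 and 190 CPM (edgeR adjusted p = 0.662), higher without overlap, as were 20.8% of all genes tested. Before thinning Ccl8 had a UMI in 8.75%, 4.35%, 5.41% and 22.5% of the chosen cells of control 1, control 2, NP137 1 and NP137 2. In T cells these shares were 14.1%, 4.35%, 7.03% and 33.7%, and the part of free RNA was not tested.

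The last comparison tested whether the NP137 difference was unlike in the chosen cells and in Mmp12-zero macrophages. Of 10619 genes tested 1 had a higher (0.00942%) and 5 had a lower (0.0471%) NP137 difference in the chosen cells at an adjusted p under 0.05, and 427 had an unadjusted p under 0.05. DESeq2 called 0 and 5. All called genes are described here. Against 866 Mmp12-zero cells matched in UMIs none passed. Without doublets 0 and 1 passed, and without control 1, NP137 1 or NP137 2 there were 10, 9 or 12 higher and 12, 42 or 31 lower.

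Nos2, the inducible nitric oxide synthase, stood at 33.1 and 33.6 CPM in the chosen cells of the controls and at 3.97 and 16.7 CPM with NP137. In Mmp12-zero macrophages it stood at 0.949 and 0.440 CPM in the controls and at 2.04 and 10.2 CPM with NP137. Thus it was lower with NP137 in one class and higher in the other, and the difference was -4.52 ± 0.54 on the log2 scale (edgeR adjusted p = 0.0237). Several of these levels rest on few UMIs, such as 0.440 CPM in Mmp12-zero macrophages of control 2, in a sum of 2158170 UMIs.

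Mmp13 stood at 371 and 73.3 CPM in the chosen cells of the controls and at 515 and 324 CPM with NP137, while the Mmp12-zero class stood at 64.4 and 14.5 CPM in the controls and at 418 and 214 CPM with NP137 (difference -2.02 ± 0.24, edgeR adjusted p = 0.0237). Wfdc17, a secreted protein of activated macrophages, stood at 442 and 229 against 250 and 337 CPM in the chosen cells and at 264 and 149 against 417 and 790 CPM in the other class (-1.69 ± 0.24, edgeR adjusted p = 0.0486). For both genes the Mmp12-zero class held the larger difference between treatments.

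Lyz2, lysozyme, was the gene with a higher NP137 difference in the chosen cells, 0.96 ± 0.14 (edgeR adjusted p = 0.0486). It stood at 4183 and 4724 against 2737 and 7188 CPM there and at 8123 and 9562 against 2797 and 7334 CPM in Mmp12-zero macrophages, so that the classes were apart in the controls and level in both NP137 libraries. Rsad2 stood at 118 and 140 against 12.9 and 22.4 CPM in the chosen cells and at 32.6 and 57.2 against 14.2 and 37.0 CPM in the other class (-2.21 ± 0.32, edgeR adjusted p = 0.0486). Cd209a, a C-type lectin of dermal dendritic cells, stood at 14.2 and 36.6 against 0.992 and 0 CPM in the chosen cells and at 0.285 and 0 against 4.58 and 1.74 CPM in Mmp12-zero macrophages. Its fitted difference of -9.47 (edgeR adjusted p = 0.0486) depends on the sums at 0 UMIs and is no estimate of size. Over the alternatives that could fit these genes, adjusted p ran from 1.59e-09 to 0.510 for Nos2, from 3.55e-09 to 0.904 for Mmp13, from 3.64e-09 to 0.329 for Cd209a, and up to 0.926 or more for Wfdc17, Lyz2 and Rsad2. The log2 differences kept their sign in these alternatives. They ran from -5.39 to -4.31 for Nos2, from -2.58 to -1.39 for Mmp13, from -1.93 to -1.41 for Wfdc17, from -2.71 to -1.74 for Rsad2 and from 0.85 to 1.45 for Lyz2.

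**Figure D5:**
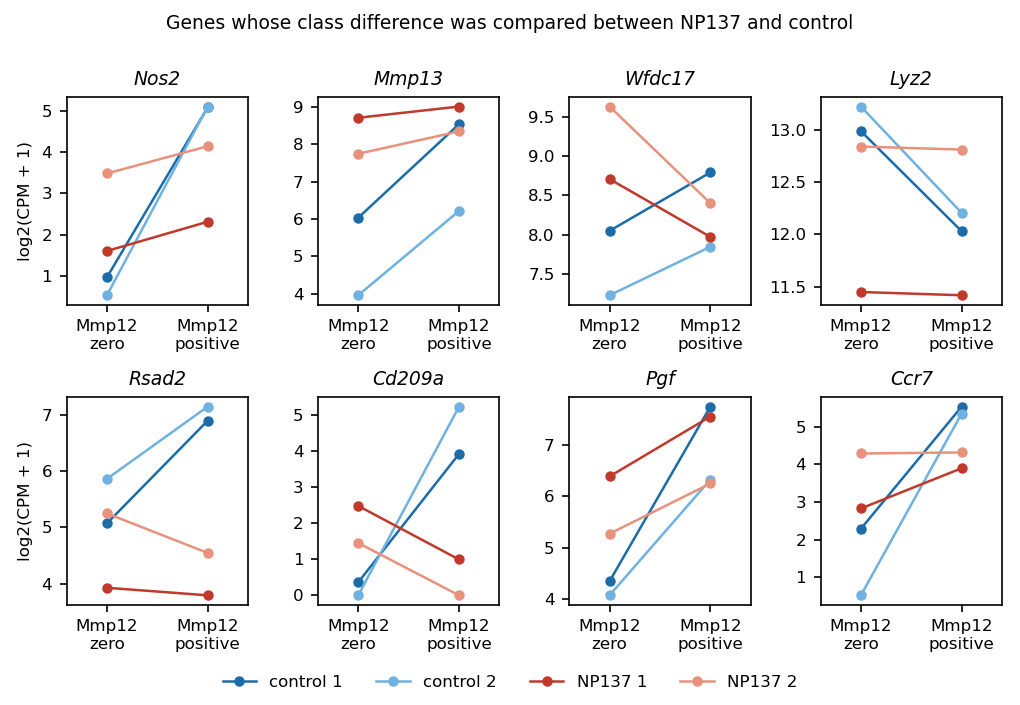
Levels of 8 genes as log2(CPM + 1) in Mmp12-zero (left) and Mmp12-positive macrophages (right), with 1 line per library. For Nos2, Mmp13 and Cd209a the control lines rise steeply and the NP137 lines are flatter or fall, and for Lyz2 the control lines fall and the NP137 lines are level.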

How the data were processed

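Single-cell RNA was measured in 4 libraries of skin tumour cells. The values are UMI counts, deposited by the authors as 1 matrix per library, and the file headers give 10x software 3.0.2. The submitters' processing notes name mm10 and Seurat 3.1.5. How reads were aligned and how cell barcodes were called is not given in the sources used here. In all, 31053 genes and 57011 barcodes were listed.

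Kept cells had 200 or more genes and less than 20% of UMIs from mitochondrial genes, and were not filtered for doublets in the main analysis. Doublets were called as the highest Scrublet scores of a library, 0.8% per 1000 barcodes. Counts were summed per library and class and tested with edgeR's quasi-likelihood test (robust glmQLFit after filterByExpr and TMM, with Benjamini-Hochberg adjustment at 0.05). Adjusted p-values are over all genes tested. Mmp12, C1qa, C1qb, C1qc, Cd3e, S100a8 and S100a9 stayed in the sums and were not tested. Comparisons between classes had the library as a block, since both classes come from the same library. The NP137 comparison had none. CPM are scaled with the TMM factors of each fit, so they differ slightly between comparisons. Marker sums use the factors of the comparison between classes. CPM of Mmp12 bins and of cells outside the chosen ones are unscaled. SE is the log2 difference divided by the root of F. Shares were compared by an exact 2-sided permutation test over the assignments of 4 libraries. T cells for the background shares were kept cells with at least 1 Cd3e UMI and no C1q UMI. For same-date pairs a pseudocount of 5 CPM was used.

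Control and NP137 samples share the numbers 1 and 2, and their deviations correlated at 0.0281 over 8620 genes, with 2 pairs, so the numbers are not taken to pair the samples.

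Named genes were the 10 of largest log2 difference, up and down, that passed with a mean of at least 20 CPM and 1 sign in every library or groups without overlap, filled up to 6 by smallest p, the 3 members of smallest p of each of 36 lists, and all members of the class II, metalloproteinase, lipid, resident and netrin lists. Not all are printed, some members of lists are not reported here, and further ones were chosen after their values were seen. The cells, the lists and the rule were chosen with earlier results of these data known. The tests were tested on simulated data. Alternatives were leaving out each library in turn, DESeq2 itself or its size factors alone, low counts unfiltered, a stricter cell filter (500 genes, 10% mitochondrial UMIs), doublets removed, other Mmp12 and C1q minimums, thinning to 2000 UMIs, Mmp12-zero cells matched in UMIs, and other blocks.

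Tools were R 4.3.3 (DESeq2 1.42.0, edgeR 4.0.16, limma 3.58.1) and Python 3.11.15 (scanpy 1.11.5, scipy 1.17.1, pandas 2.3.3, numpy 2.4.6, matplotlib 3.10.9).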

Additional observations from a re-analysis of the deposited data

Results flagged for a closer look

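For 6 genes the NP137 difference was unlike in Mmp12-positive and Mmp12-zero macrophages by the test of the class by treatment term (edgeR's quasi-likelihood test, adjusted p under 0.05). The difference between the classes, positive minus zero on the log2 scale, was -4.52 for Nos2, -2.02 for Mmp13, -1.69 for Wfdc17, 0.96 for Lyz2, -2.21 for Rsad2 and -9.47 for Cd209a. Nos2 was lower with NP137 in the Mmp12-positive class and higher in the other. Both libraries of each group showed this, but several of the sums held few Nos2 UMIs. Rsad2 was lower in the NP137 libraries of the Mmp12-positive class without overlap, as were 19.4% of all genes tested there. Cd209a had 0 UMIs in 2 of the 8 sums. None of the 6 passed against the 866 Mmp12-zero cells matched in UMIs, a class of fewer cells than the 4382 of the main comparison. Over all alternatives that could be fitted the log2 differences kept their sign, from -5.39 to -4.31 for Nos2 and from -2.71 to -1.74 for Rsad2. With 2 libraries per group, single libraries could not be tested as outliers.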

How the results depend on the processing

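Between the classes, 225 genes were higher and 160 lower of 9704 tested. With no filter on low counts there were 444 and 406 of 19598 tested, and with no library block 0 and 0. Thinning gave 125 higher of 4227 tested. DESeq2 gave 103 lower, doublets removed 255 lower of 8516 tested and UMI-matched cells 69 lower of 8621 tested. These counts rest on unlike numbers of genes tested. Leaving out 1 library gave 19 to 286 higher and 25 to 181 lower. For NP137 within the chosen cells (0 and 0 of 8620 tested), DESeq2 gave 9 and 8 and no filter 106 and 61 of 16487 tested. DESeq2's size factors gave 1 higher and the stricter cell filter 1 higher. Leaving out 1 library gave 0 to 47 higher and 2 to 16 lower. The replicate block by sample number gave 0 and 0. For the difference between classes (1 and 5 of 10619 tested), no filter gave 21 and 44 of 19598 tested and at least 4 Mmp12 UMIs 3 and 8. Doublets removed gave 0 and 1, UMI-matched cells 0 and 0, DESeq2's size factors 0 and 2, and DESeq2 0 higher. Leaving out 1 library gave 1 to 12 higher and 5 to 42 lower. The log2 ratio of the share among kept cells ran from -0.19, without control 2, to 2.15 without control 1, and that among C1q macrophages stayed between 0.59 and 1.75 over all alternatives.

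Under NP137, values that did not pass changed sign for Cd74 (0.0102 when thinned), Mmp13 (-0.33 when thinned), Spp1 (0.47 with the replicate block, and from -0.88 without control 2 to 1.92 without control 1, with 0.09 without NP137 2) and Il1b (0.0557 when thinned, and from -0.59 without control 2 to 0.18 without control 1). The causes were not tested. In all, 147 of 791 gene values between the classes under an alternative lost their call and none reversed, 51 of these with no library block, where both classes of a library enter as unrelated. Of the resident list 10 to 18 were lower under every alternative other than that one, where none was. The cells of NP137 1 are limited by depth and control 2 by its number of cells, 23.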

Other observations

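Shares of cells with a UMI were also counted in the chosen cells, and they do not by themselves show subtypes among these cells. After thinning to 2000 UMIs, a UMI of Lyve1, Cbr2, Folr2 or F13a1 was found in 11.6% of them and in 57.5% of Mmp12-zero macrophages. A UMI of Mgl2, Itgax or Ccl17 was found in 45.8% and 10.8%. Il1b, the cytokine interleukin 1 beta, was found in 89.8% of the chosen cells and Spp1 in 50.5%, and both together in 44.5%. In Mmp12-zero macrophages these shares were 49.0%, 43.8% and 19.9%. Before thinning Spp1 had a UMI in 67.4% of the chosen cells and in 44.5% of T cells, and the part of free RNA was not tested. Spp1 and Arg1, the arginase of alternatively activated macrophages, were found together in 8.62%. By library Arg1 was found in 16.2%, 9.09%, 0.397% and 19.1% of the chosen cells of control 1, control 2, NP137 1 and NP137 2. In Mmp12-zero macrophages thinned to the same 2000 UMIs it was found in 14.1%, 8.79%, 1.25% and 7.00%. NP137 1 was lowest in both classes.

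Mmp12 UMIs also lay outside the chosen cells. A further 583 cells held at least 2 Mmp12 UMIs without meeting the other criteria. Of these 520 had fewer than 5 C1q UMIs, and 365 had none. The summed counts of the 520 cells held 6340 CPM of Krt14, a keratin of basal keratinocytes, and 1360 CPM of H2-Aa, with a median depth of 6249 UMIs. What these cells are was not tested.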
